A study of Mus musculus with 18 samples.

Results

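The factors that carry translation were followed through early embryoid body (EB) formation in mouse embryonic stem (ES) cells. Members were all cDNA clones annotated with a single gene symbol that begins with Eif and a number (initiation factors) or Eef and a number (elongation factors), together with the release factor genes Etf1, Gspt1 and Gspt2, provided that a value was present on at least 1 array of each condition. This gave 127 clones of 53 genes out of 15360 clones on the array. Of these, 35 clones of 8 genes belonged to elongation, 87 clones of 43 genes to initiation and 5 clones of 2 genes to release, and no clone carried the symbol Gspt2. Elongation rested largely on 1 gene, since Eef1a1 held 17 of the 35 clones, followed by Eef1g with 7 and Eef2 with 4.

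All RNA came from IMT11, a single mouse ES cell line, and the medium held serum throughout. EBs of 1000 cells were formed in hanging drops and collected on Days 1, 2, 3 and 4 without leukaemia inhibitory factor (D1-LIF to D4-LIF) or with it (D1+LIF to D4+LIF), and undifferentiated ES cells kept with LIF on gelatin were the Day 0 sample (D0). LIF is a cytokine added to culture medium to keep such cells self-renewing. Each of the 9 conditions was hybridised on 2 arrays together with a pooled control, once as the Cy3 channel and once as the Cy5 channel, which made 18 arrays and left 1 array for each condition and dye. The labels state a different RNA sample for each array but do not say which array belongs to which culture set, so dye and culture set cannot be told apart, and p-values measure only the spread between these arrays.

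Translation begins when eIF2 brings the initiator tRNA to the small ribosomal subunit, eIF3 holds the complex together, and the eIF4 factors bind the mRNA cap and unwind the leader. In elongation, eEF1A delivers each charged tRNA, the eEF1B subunits recharge eEF1A with GTP, and eEF2 moves the ribosome on by a codon. At a stop codon eRF1 (Etf1) and eRF3 (Gspt1) release the chain. The mRNAs of elongation factors and ribosomal proteins are abundant in growing cells and many of them start with a C followed by a run of pyrimidines, the terminal oligopyrimidine (TOP) motif, through which mTOR signalling controls their translation.

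Because that motif is a known feature that parts elongation from most initiation factors, the annotated starts of 6 members are shown first. Each line gives 30 bases from RefSeq on build GRCm38.p6, read 5′ to 3′ on the gene's strand, with 10 bases before the annotated start base and 20 from it on. Capitals mark the unbroken run of C and T that begins at the start base.
Eef1a1, chr9:78481705-78481734, minus strand: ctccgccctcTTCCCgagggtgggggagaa
Eef2, chr10:81176621-81176650, plus strand: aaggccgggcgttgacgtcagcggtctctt
Eif3f, chr7:108934405-108934434, plus strand: tctaggctctCTCTCTTTCTCggcaagatg
Eif2s3x, chrX:94212632-94212661, minus strand: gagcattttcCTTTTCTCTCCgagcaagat
Eif3l, chr15:79075213-79075242, plus strand: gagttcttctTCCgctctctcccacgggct
Eif4a1, chr11:69672404-69672433, minus strand: gtaacgtcacgtcgagttgcagagcgccgg

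The search was for a C at the annotated start base followed by at least 4 bases that were C or T, on the gene's own strand, at any annotated start of the gene. Of the 53 member genes, 42 were matched to a RefSeq start. None of the 6 matched elongation genes held the motif. For instance, the Eef1a1 run of 5 pyrimidines begins with T and the Eef2 start base is G. The other matched elongation genes were Eef1b2 and the regulators or partners Eef1e1, Eef2k and Eef2kmt. Eef1g and Eef1d, subunits of eEF1B, were not matched. The motif was present in 2 of the 35 matched initiation genes, Eif3f, a subunit of eIF3, and Eif2s3x, the X-linked gamma subunit of eIF2, with runs of 11 pyrimidines each. The share was 5.714% of 35 matched initiation genes, 23.636% of 55 matched ribosomal protein genes on the array and 3.044% of 5781 matched array genes. The annotated start therefore did not part the elongation factors from the initiation factors in these windows. The search depends on the exact annotated base: the base just before the Eef1a1 start base is C, so a start placed there would hold the motif. Since only 23.636% of the matched ribosomal protein genes held it, the search cannot show that an mRNA lacks the motif.

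The deposited values were ratios of normalised channel intensities, taken to log2 and centred on the median of all clones within each printed slide of each array, so that 0 is the middle clone. The files do not state which channel is on top. The ratio was read as sample over pooled control, which is likely but not settled, and values with the Cy3 arrays turned in sign are given where they matter. Arrays of different conditions had a mean correlation over all clones of 0.63 within Cy5 (0.35 to 0.91) and 0.33 within Cy3 (-0.24 to 0.78), while both arrays of a condition averaged -0.11 (-0.52 to 0.48). The 15360 clones fell on 2 slides, and 3 of the slide images stood apart in spread: slide 1 of D0 in Cy3, with an SD of 2.23 against a median of 0.228 over Cy3 slides, and slide 1 of D1+LIF and of D2-LIF in Cy5, with 2.40 and 2.10 against 0.689. Of the member clones 61 lay on slide 1 and 66 on slide 2, and 87 had a value on every array. A ratio against a pool cannot show whether a marker is present, and fewer cells of a type and less RNA per cell cannot be told apart.

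The first comparison asked how the elongation factors stood relative to the initiation factors in each condition, each dye apart. On the Cy5 arrays elongation clones lay below initiation clones in every condition, while on the Cy3 arrays both classes lay close together. The elongation median was below 0 on 9 of 9 Cy5 arrays and on 3 of 9 Cy3 arrays. The pool was mixed from such samples, so an offset shared by all conditions on a single dye cannot be read as a level of the factors. Its cause was not tested. The difference of the class medians, elongation minus initiation, was -0.45 at D0 in Cy5. Without LIF it was -2.04, -1.78, -1.95 and -1.54 on Days 1 to 4, and with LIF it was -2.00, -2.07, -1.98 and -2.64. The Cy5 difference was thus negative on 9 of 9 arrays, with a median of -1.98 and an SD of 0.593 over arrays, and it was closest to 0 in ES cells. The distance of D0 from the EBs depended on the scale of the arrays. With the arrays scaled to equal spread the Cy5 difference was -0.44 at D0, -0.46 at D4+LIF and -0.59 at D2+LIF. On the other EB arrays it then ran from -1.54 to -1.33.

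In Cy3 the difference was 0.54 at D0. Without LIF it was -0.35, 0.49, -0.31 and 0.16 on Days 1 to 4, and with LIF it was 0.07, 0.07, -0.05 and 0.02. It was positive on 6 of 9 arrays, with a median of 0.07 and an SD of 0.306, so the Cy3 arrays gave no class difference of the size seen in Cy5. As read, D0 had the highest difference on both dyes, while D4+LIF had the lowest in Cy5 and D1-LIF the lowest in Cy3. With the Cy3 arrays turned in sign, D0 had the lowest Cy3 difference and D1-LIF the highest. Without the 17 Eef1a1 clones the median difference was -1.43 in Cy5 and -0.12 in Cy3, where 8 of 9 arrays were then negative. With each gene counted once it was -1.15 in Cy5 and -0.07 in Cy3. The rank of D0 in Cy3 changed with the setting. Without the Eef1a1 clones D0 was at -0.12 in Cy3, and D2-LIF was highest at 0.24. With each gene counted once D0 was the lowest Cy3 array, at -0.42. With the arrays scaled to equal spread D2-LIF, at 0.45, lay above D0, at 0.26.

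**Figure D1:**
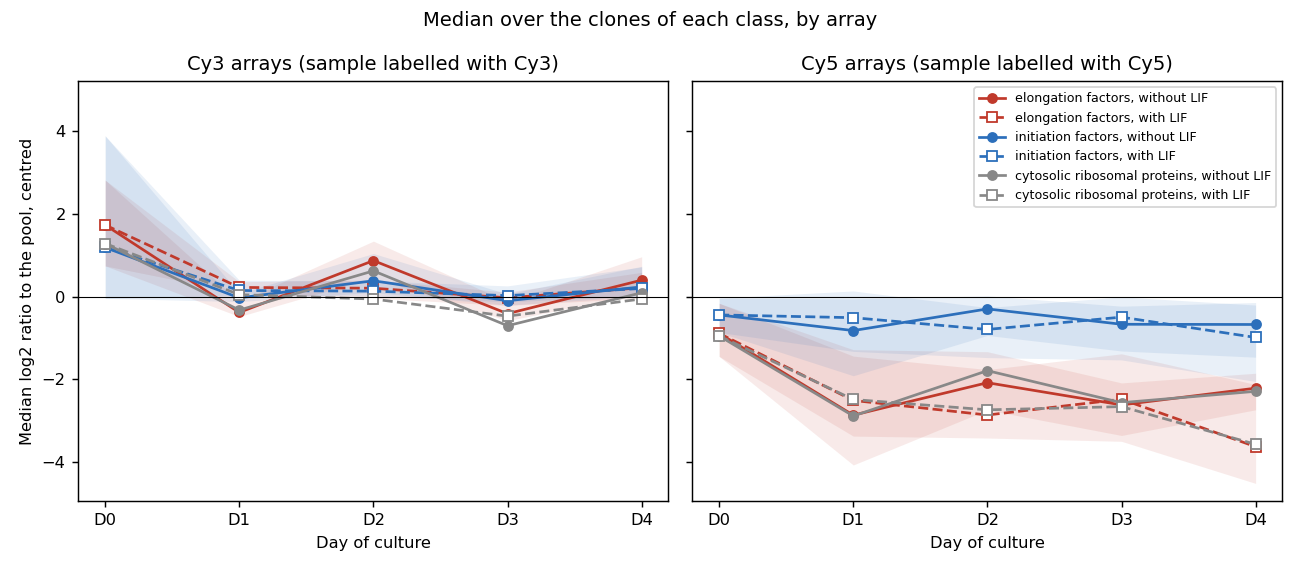
Median centred log2 ratio to the pool of elongation, initiation and cytosolic ribosomal protein clones on each array against day of culture, with a panel for each dye, solid lines without LIF, dashed lines with LIF, and shading from the lower to the upper quartile of the elongation and initiation clones. In Cy5 the elongation medians of EBs lie between -3.62 and -2.08 and those of initiation between -0.99 and -0.30, whereas in Cy3 both classes lie between -0.41 and 0.87 in EBs and above 1 at D0.

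Read as sample over pool, the class levels behind these differences stood higher at D0 than in nearly all EBs in both classes. With the Cy3 arrays turned in sign, D0 instead stood below all EB arrays in Cy3. The elongation median in Cy3 lay between -0.41 and 0.87 over the 8 EB arrays, against 1.73 at D0. In Cy5 it lay between -3.62 and -2.08 in EBs, against -0.89 at D0. All EB arrays were therefore below D0 on both dyes for elongation, although the level against the pool was near 0 on one dye and far below it on the other.

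For initiation the Cy3 median lay between -0.10 and 0.38 in EBs, against 1.18 at D0. In Cy5 it lay between -0.99 and -0.30 in EBs, against -0.44 at D0, and 7 of the 8 EB arrays were below D0. Release factors lay between -0.07 and 0.14 in EBs and at 0.89 at D0 in Cy3, and between -1.16 and -0.09 in EBs and at -0.43 at D0 in Cy5. In Cy5 the EB medians of initiation and release were thus below D0 on 7 of 8 arrays each. The exception for both was D2-LIF, the array with a slide that stood apart, where 56 of the 87 initiation clones had a value.

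The second comparison was of the mean of all 8 EB conditions with D0. By limma with Benjamini-Hochberg adjustment over all clones, 3 member clones passed an adjusted p of 0.05, all lower in EBs, against a background of 0.163% of all clones called lower and 0.026% called higher. The 3 were elongation factor clones, 2 of Eef1a1 and 1 of Eef2, and none of the 87 initiation clones and none of the 5 release clones was called. At an unadjusted p under 0.05 there were 29 of 35 elongation, 40 of 87 initiation and 2 of 5 release clones, against 33.3% of all clones. The median log2 difference was -1.64 for elongation with 32 of 35 negative, -0.75 for initiation with 66 of 87 negative, -0.46 for release and 0.01 over all clones.

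The size of the difference depended on the printed slide. On slide 1, where the D0 array in Cy3 stood apart, the median difference was -2.65 over 12 elongation clones and -1.74 over 47 initiation clones. On slide 2 it was -1.46 over 23 elongation clones and -0.31 over 40 initiation clones. With slide 2 alone, limma called 13 of 66 member clones, all of them elongation factors, against 2.79% of all clones on it. With the 3 slides that stood apart left out it called 5 of 127, against 0.293% of all clones. Both are alternatives chosen after seeing the data. The part of the D0 slide in the slide 1 values was not tested.

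The call also rested on the scale and the direction of the ratios. Arrays scaled to equal spread, quantile normalisation, a fit with no dye term, array quality weights and the turned sign of the Cy3 arrays each left 0 member clones called by limma (6 to 47 at an unadjusted p under 0.05), and with the sign turned the members' median difference was 0.26. Without the D0 array in Cy3 limma called 0 (23 unadjusted), and without the D0 array in Cy5 it called 67, against 36.3% of all clones in that fit. The count thus moved most with the D0 arrays.

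Whether EBs and D0 overlapped was then read on each dye without a model. Every EB array with a value (at least 6 of the 8) lay below D0 on both dyes for 20 of 35 elongation clones, 7 of 87 initiation clones and 0 of 5 release clones, against 6.69% of all clones. With the Cy3 arrays turned in sign the counts were 0 of 35, 1 of 87 and 0 of 5, against 2.46% of all clones. In Cy5 alone this held for 23 of 35 elongation and 11 of 87 initiation clones against 12.3% of all clones, and in Cy3 for 27 of 35 and 55 of 87 against 36.4%, or for 4 of 35 and 17 of 87 against 38.9% with the sign turned. Initiation stood near the background in Cy5, while the elongation share was above it on both dyes as read, and below it in Cy3 with the sign turned. Among cytosolic ribosomal proteins 101 of 175 clones lay below D0 on both dyes, and 0 with the sign turned.

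**Figure D2:**
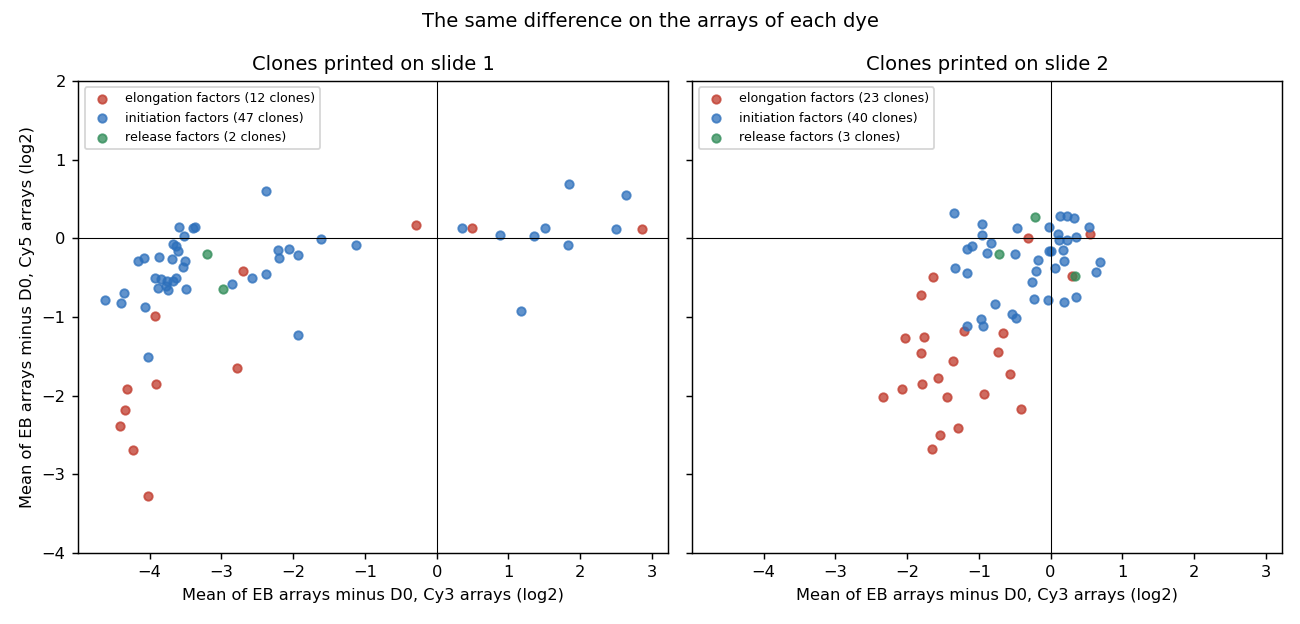
Mean of the EB arrays minus D0 for each member clone, Cy3 on the horizontal and Cy5 on the vertical axis, both in log2 units, with a panel for each printed slide. On slide 2 elongation clones lie low on both axes, and on slide 1, where the D0 array in Cy3 had an SD of 2.23, many clones of both classes lie far to the left.

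Eef1a1 encodes eEF1A1, the carrier of charged tRNA and one of the most abundant proteins of proliferating cells. The mean of its 17 clones in Cy3 was -0.42, 1.19, -0.33 and 0.93 on Days 1 to 4 without LIF and 0.35, 0.38, -0.04 and 0.60 with LIF, against 2.72 at D0. In Cy5 it was -3.67, -2.57, -3.23 and -2.50 without LIF and -3.11, -2.99, -3.21 and -3.89 with LIF, against -1.14 at D0. Every EB array was below D0 of the same dye, with a mean Eef1a1 difference of -2.39 in Cy3 and -2.01 in Cy5, although the Eef1a1 level was below 0 on 9 of 9 Cy5 arrays and on 3 of 9 Cy3 arrays.

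At gene level Eef1a1 was the only member called by limma, lower in EBs by a log2 difference of -2.20 ± 0.24 (SE, adjusted p = 0.0099 over 7142 genes). With the 3 slides that stood apart left out it was -1.73, and on slide 2 alone it was -1.72, both still called. It was not called at equal spread (-0.60), after quantile normalisation (-0.79) or without the D0 array in Cy3 (-2.01), and with the Cy3 arrays turned in sign it was 0.19. All 17 Eef1a1 clones were negative, from -3.65 to -1.06 with a median of -1.99, and 13 of them lay below D0 on every EB array of both dyes. Paralogs and pseudogenes of Eef1a1 can hybridise to the same cDNA clones, so the clones may not measure this gene alone.

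The Eef1a1 clone on slide 2 that was called shows the same layout in single arrays. In Cy3 it read -0.49, 1.29, -0.25 and 0.96 on Days 1 to 4 without LIF and 0.50, 0.88, 0.13 and 0.28 with LIF, against 2.75 at D0. In Cy5 it read -4.48, -3.60, -3.63 and -2.95 without LIF and -3.49, -4.00, -4.42 and -5.13 with LIF, against -1.94 at D0. EBs and D0 did not overlap on either dye, and limma gave Eef1a1 here a log2 difference of -2.18 ± 0.317 (SE, adjusted p = 0.043). The Eef1a1 clone on slide 1 that was called had -3.65 ± 0.562 (SE, adjusted p = 0.0442).

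Eef2, the translocase, was the other elongation factor with a called clone. The mean of its 4 clones, all on slide 2, was -0.45, 0.41, -0.51 and 0.17 in Cy3 on Days 1 to 4 without LIF and -0.19, -0.02, -0.23 and -0.11 with LIF, against 0.89 at D0. In Cy5 it was -1.94, -1.32, -1.86 and -1.70 without LIF and -1.79, -2.30, -1.65 and -2.73 with LIF, against -0.94 at D0. The groups did not overlap on either dye. The called Eef2 clone had a log2 difference of -1.19 ± 0.178 (SE, limma adjusted p = 0.043), and the gene-level Eef2 value of -0.99 ± 0.22 did not pass the adjusted threshold.

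The subunits of eEF1B, the exchange factor that reloads eEF1A with GTP, lay on the same side. Eef1b2, the catalytic subunit, ran in Cy3 EBs from -0.61 over a median of 0.03 to 0.91, against 2.50 at D0. In Cy5 EBs it ran from -3.23 over a median of -2.54 to -1.42, against -0.96 at D0. EBs were below D0 throughout, and the log2 difference for Eef1b2 of -1.94 was not called in the gene-level fit (limma adjusted p = 0.067).

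Eef1g, the structural gamma subunit, ran in Cy3 EBs from -0.49 over a median of 0.15 to 0.81, against 1.14 at D0. In Cy5 EBs it ran from -3.32 over a median of -1.99 to -1.55, against -0.82 at D0. Here too no EB array reached D0. Its gene-level difference was -1.20, and its 7 clones disagreed, since the 5 on slide 2 had -1.67 to -0.93 while the pair on slide 1 had -2.88 and 1.53. Eef1d, the delta subunit, had a single clone on slide 1 with -2.42 ± 0.68 (SE), and -0.80 with the slides that stood apart left out.

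The remaining Eef genes are regulators or partners of elongation and not part of its machinery. Eef2k, the kinase that inhibits eEF2, had a gene-level difference of 0.12, Eef2kmt, the methyltransferase that modifies eEF2, had 0.30, and Eef1e1, a component of the multi-tRNA-synthetase complex, had -0.09. None of the 3 was called. Their differences lay near 0, away from those of the eEF1 and eEF2 subunits, so that 6 of 8 elongation genes were negative. The clones of eEF1A, eEF1B and eEF2 had median differences of -1.99, -1.55 and -1.14, and the 3 clones of Eef2k and Eef2kmt had 0.30.

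**Figure D3:**
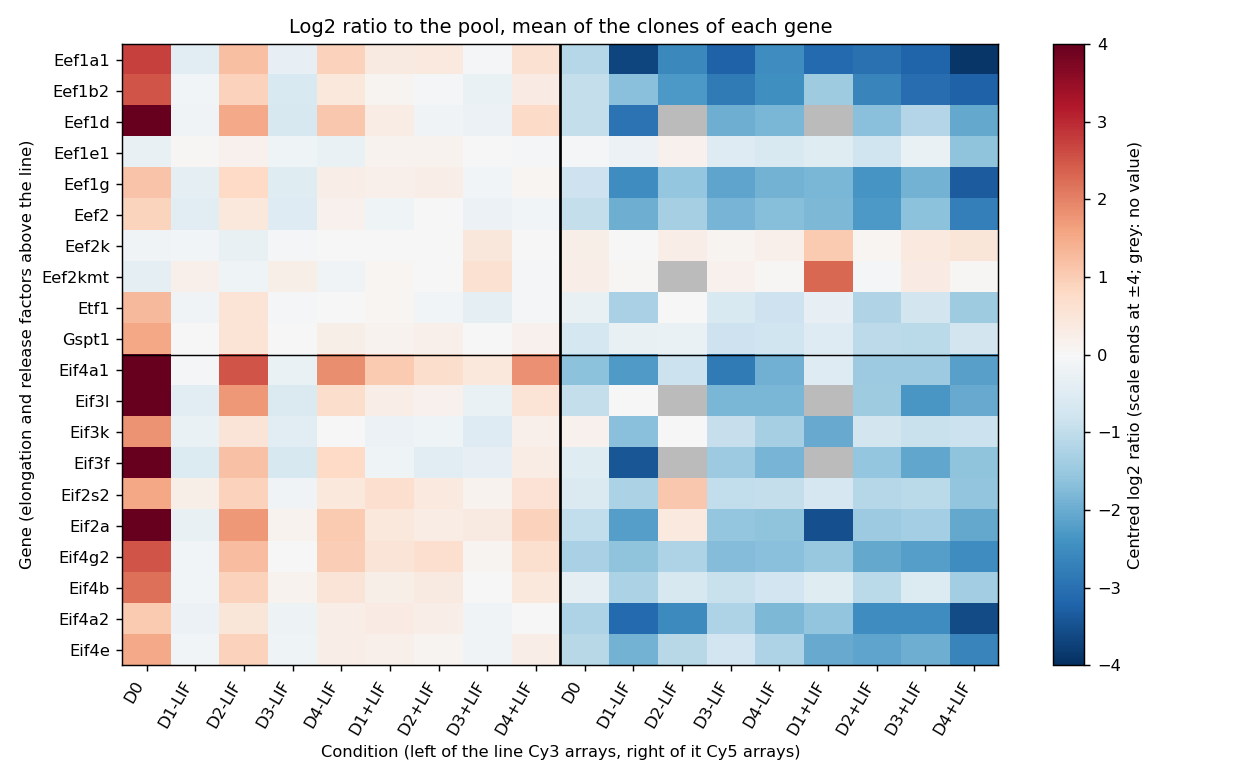
Log2 ratio to the pool of the 20 named genes (down the page) on each of the 18 arrays (across, Cy3 arrays left of the line and Cy5 arrays right of it), as the mean of the gene's clones, in red above and blue below the array median. The D0 column is the highest of its dye for Eef1a1, Eef1b2, Eef1g, Eef2, Eif3k and Eif4b on both dyes. For Eef1a1 it is 2.72 in Cy3 and -1.14 in Cy5. The same holds for Eef1d and Eif3f on the arrays with a value. With the Cy3 sign turned the D0 column would be the lowest Cy3 column for all these genes.

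Among initiation factors the eIF3 subunits, the scaffold of the small-subunit complex, had a median difference of -1.15 with 21 of 25 clones negative and none called by limma (11 at an unadjusted p under 0.05). Eif3k, a small peripheral subunit, was closest to the threshold. In Cy3 EBs Eif3k ran from -0.50 over a median of -0.21 to 0.52, against 1.81 at D0. In Cy5 EBs it ran from -2.00 over a median of -0.90 to 0.02, against 0.18 at D0. The EB arrays were again all below D0, and the Eif3k difference was -1.58 ± 0.27 (SE, limma adjusted p = 0.0535 at gene level). Eif3k rests on a single slide 1 clone, and its difference was -1.16 without the slides that stood apart (limma adjusted p = 0.137).

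Eif3f, an eIF3 subunit whose start carries a run of 11 pyrimidines, had a gene-level difference of -2.74, and -1.35 without the slides that stood apart. Eif3l, a subunit named in the study, had -2.13 ± 0.78 (SE, limma adjusted p = 0.106), and -0.37 without those slides. Both rest on slide 1. For Eif3l the Cy3 arrays gave at most 1.72 in EBs against 4.04 at D0, while in Cy5 the EB arrays ran from -2.33 to 0.02 around the D0 value of -0.96. The Eif3l groups were thus apart on the Cy3 arrays and overlapped on the Cy5 arrays.

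The eIF4 group, which binds the cap and unwinds the leader, had a median difference of -0.85 with 21 of 23 clones negative and none called by limma (12 at an unadjusted p under 0.05). Eif4a1, the helicase and a gene named in the study, had -1.84 ± 0.71 (SE, limma adjusted p = 0.107) and -0.12 without the slides that stood apart. All 4 of its clones lay on slide 1. The mean EB difference from D0 for Eif4a1 was -3.65 in Cy3 and -0.04 in Cy5. In Cy5 the Eif4a1 EB arrays ran from -2.82 to -0.50 around the D0 value of -1.64. Its paralog Eif4a2 on slide 2 had -1.03 in both cases. Eif4a1 and Eif4a2 are similar enough in sequence that their clones may share signal. The cap-binding protein Eif4e had -0.98, the helicase cofactor Eif4b -1.19 and Eif4g2, a scaffold without the cap-binding site, -1.26, and these were -0.50, -0.31 and -0.53 without those slides.

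In eIF2 and its partners the direction was mixed. The 7 eIF2 clones had a median of -0.41, with Eif2s2, the beta subunit, at -0.70 at gene level. The gamma subunit has an X-linked and a Y-linked copy: Eif2s3y had the highest gene-level difference of all members at 1.26, from a single slide 1 clone, and Eif2s3x had -0.23. Neither was called. Eif2a, an alternative initiator-tRNA carrier, had -2.53, and -0.57 without the slides that stood apart. The exchange factor eIF2B had a median of -1.23 over 6 clones, eIF5 and eIF5B, which act in subunit joining, -1.57 over 6, and the start-site factors eIF1 and eIF1A -0.54 over 7. Most of the eIF2B, eIF5 and eIF5B clones lay on slide 1. On slide 2 the Eif2b2 clone had 0.29 and the pair of Eif5b clones had -0.46 and 0.20. eIF6, which keeps the large subunit apart, had 0.23 over its pair of clones, and the eIF2 kinases Eif2ak1 and Eif2ak4 had a median of -0.04.

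Over clones, the release factors had the median difference nearest 0 of the 3 classes, at -0.46. At gene level the median was -0.80 for release, -0.70 for initiation and -1.10 for elongation, so initiation was then nearest 0. Etf1 (eRF1), which reads the stop codon, ran in Cy3 EBs from -0.40 over a median of -0.05 to 0.54, against 1.30 at D0. In Cy5 EBs it ran from -1.44 over a median of -0.78 to -0.00, against -0.29 at D0, so that it overlapped D0 on that dye. Its difference was -0.92, and -0.10 without the slides that stood apart. Gspt1 (eRF3a), the GTPase partner of eRF1, had -0.68, and -0.19 without them. Over all 53 genes, 6 of 8 elongation, 34 of 43 initiation and 2 of 2 release genes were negative, and 9 of 53 genes lay below D0 on every EB array with a value on both dyes, against 7.15% of all genes: Eef1a1, Eef1b2, Eef1g, Eef1d, Eef2, Eif3f, Eif3k, Eif4b and Eif5a. Eef1d and Eif3f had a value on 6 of the 8 EB arrays in Cy5, and the other 7 genes on all of them. With the Cy3 arrays turned in sign none of the 53 genes lay below D0 on both dyes.

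**Figure D4:**
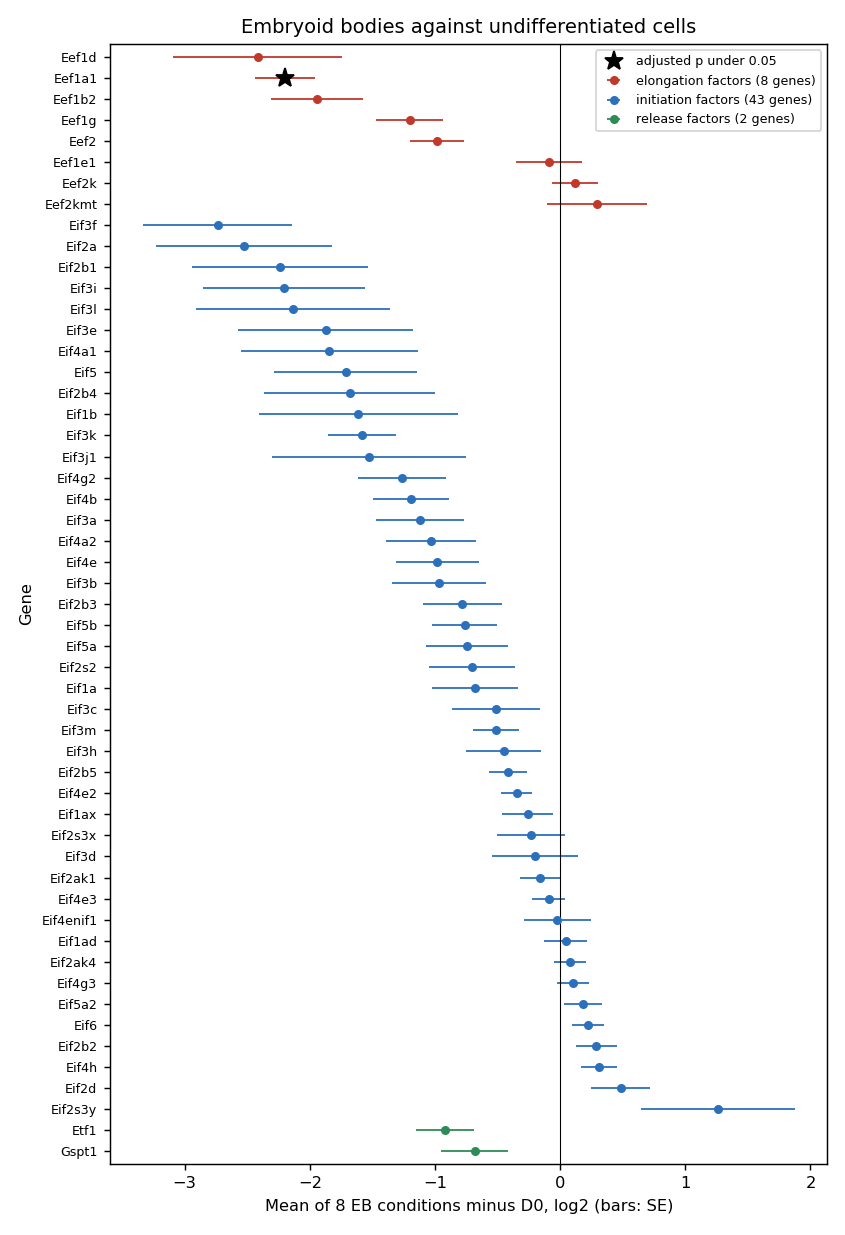
Log2 difference of all EBs against D0 for each member gene at gene level, with the standard error of the limma fit as bars and the classes in separate colours. The eEF1 and eEF2 subunits lie between -2.42 and -0.99 and the other elongation genes near 0, and initiation genes spread from -2.74 for Eif3f to 1.26 for Eif2s3y.

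Genes that work beside the factors gave the following counts in the same fit. Cytosolic ribosomal proteins had a median difference of -1.65 over 175 clones of 70 genes, with 171 negative and 7 called lower. Other TOP mRNAs such as Tpt1 and Npm1 had -1.91 over 38 clones with 3 called lower. The elongation median of -1.64 was close to that of the ribosomal proteins, and Eef1a1 with -1.99 to that of the other TOP mRNAs. Cytosolic tRNA synthetases had -0.90 over 31 clones with none called (12 at an unadjusted p under 0.05), near the initiation factors. Partners of eIF4F and mTOR had -0.52 over 31 clones with 1 called lower, and mitochondrial translation factors had -0.26 over 9 with none called (4 unadjusted).

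Of the marker lists, that of pluripotency had the median furthest from 0 in the same comparison. Pluripotency markers had a median difference of -1.78 with 10 of 11 clones negative and none called by limma (8 at an unadjusted p under 0.05). Their median was -0.18 to 0.25 in EBs against 3.28 at D0 in Cy3, and -1.60 to 0.05 in EBs against -0.21 at D0 in Cy5. Extraembryonic endoderm markers had -0.04 over 21 clones, with 10 positive and 11 negative, from -2.89 to 1.00. None of these was called, and 11 had an unadjusted p under 0.05, against 33.3% of all clones. Fibroblast markers had 0.05 over 12 clones, from -0.21 to 1.95, with none called (4 unadjusted). The part of the marker lists in the values of the translation factors was not tested.

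The third comparison followed time. The linear trend over Days 0 to 4 was called by limma for 0 member clones without LIF (19 at an unadjusted p under 0.05, against 7.94% of all clones) and for 0 with LIF (51 unadjusted, against 20.3%), and the adjusted background was 0.000% in both. The median slope per day without LIF was -0.20 for elongation and -0.10 for initiation. With LIF it was -0.47 for elongation, where 33 of 35 clones were negative, and -0.23 for initiation, where 67 of 87 were. Both trends share the D0 arrays. Eef1a1 had a gene-level slope per day of -0.29 ± 0.071 without LIF (limma adjusted p = 0.564) and of -0.51 ± 0.071 with LIF (limma adjusted p = 0.062; SE).

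The single days, which all share the D0 arrays, gave no member called by limma. At an unadjusted p under 0.05 there were 29, 11, 28 and 17 of 35 elongation clones on Days 1 to 4 without LIF, against 21.8%, 7.65%, 18.8% and 11.8% of all clones. With LIF there were 22, 28, 26 and 28, against 20.6%, 18%, 21.3% and 26.6%. Elongation clones thus passed more often than all clones on each day. For D2-LIF this rested on Eef1a1, which gave 10 of the 11 clones. The other elongation genes had 1 of 18 there, a share below the 7.65% of all clones. Without LIF the elongation median was -1.79, -0.81, -1.78 and -1.16 on Days 1 to 4, and the initiation median was -0.87, -0.21, -0.64 and -0.55. With LIF it was -1.37, -1.60, -1.81 and -2.29 for elongation and -0.56, -0.85, -0.86 and -1.14 for initiation. Over both slides together the medians moved away from D0 with each day only with LIF. The step from D0 to D1-LIF was as large as any later difference without LIF. On neither slide alone did the medians with LIF fall with each day. For elongation they were -1.95, -2.59, -3.16 and -2.47 on slide 1, and -1.34, -1.55, -1.44 and -2.19 on slide 2. For initiation they were -1.56, -1.82, -1.80 and -1.63 on slide 1, and -0.21, -0.37, -0.20 and -0.53 on slide 2. Without the Eef1a1 clones the elongation medians with LIF were -1.12, -1.36, -1.18 and -1.86. Slide 2 of D4+LIF in Cy5 was wide, with an SD of 1.41 against a median of 0.689 over Cy5 slides. In Cy5, elongation minus initiation was -2.64 at D4+LIF and -1.54 at D4-LIF. With the arrays scaled to equal spread these were -0.46 and -1.48, so the order on Day 4 depended on the scale. The difference between the slopes over Days 1 to 4 was called for 0 members by limma (10 at an unadjusted p under 0.05, lowest adjusted p = 0.947).

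The fourth comparison asked whether LIF changed the factors within EBs. Averaged over Days 1 to 4, 0 member clones were called by limma (5 at an unadjusted p under 0.05, against 3.44% of all clones, with an adjusted background of 0.000%). The median of without LIF minus with LIF was 0.21 for elongation with 26 of 35 clones positive, 0.07 for initiation with 52 of 87 positive, and 0.33 for ribosomal proteins. The sign differed between the printed slides. On slide 1 the median was -0.11 for elongation (5 of 12 positive) and -0.09 for initiation (20 of 47 positive). On slide 2 it was 0.27 for elongation (21 of 23 positive) and 0.14 for initiation (32 of 40 positive). Over both slides the sign also changed with the day. The elongation median was -0.53, 0.78, -0.21 and 0.84 on Days 1 to 4 and the initiation median -0.14, 0.47, -0.08 and 0.11. No elongation clone was higher without LIF on all 4 days on either dye, against 4.47% of all clones in Cy3 and 5.71% in Cy5, and 3 initiation clones in Cy3 and 6 in Cy5 were.

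The Day 4 difference of the elongation clones was larger for Eef1a1, with a median of 1.11 over its clones, and on slide 2. Without the Eef1a1 clones the elongation median was 0.91 on Day 2 and 0.33 on Day 4, and with each gene counted once it was 0.63 on Day 2 and 0.42 on Day 4. On Day 4 limma called no member, and 12 of 35 elongation clones had an unadjusted p under 0.05, against 7.59% of all clones. They were 7 of 17 Eef1a1 clones and 5 of 18 others. By slide they were 12 of 23 elongation clones on slide 2, with a median difference of 1.13. On slide 1 there were 0 of 12, with a median of 0.18. For comparison, Days 1, 2 and 3 had 3, 2 and 1 such elongation clones, against 2.58%, 3.95% and 0.599%. The Day 4 value of Eef1a1 was 0.93 without LIF and 0.60 with LIF in Cy3, and -2.50 without LIF and -3.89 with LIF in Cy5. The difference was 0.86 ± 0.318 for Eef1a1 and 0.65 ± 0.288 for Eef2 (SE, limma adjusted p = 0.764 for both), with D4-LIF higher on both dyes. The part of the wide slide 2 of D4+LIF in Cy5 (SD 1.41) in these Day 4 values was not tested. Over Days 1 to 4 Eif4e had 0.53 ± 0.221 and Eef2k -0.30 ± 0.123 (SE, limma adjusted p = 0.854 for both).

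A moderated F test across all 9 conditions called 0 member clones (25 at an unadjusted p under 0.05, against 3.92% of all clones, adjusted background 0.000%). Of those 25, 20 were elongation clones, 12 of them Eef1a1, and 5 were initiation clones. At gene level the smallest F test p belonged to Eef1a1 (limma adjusted p = 0.35), followed by Eif3k, Eef1b2, Eef1g, Eef2 and Etf1.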

How the data were processed

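The 18 two-colour cDNA arrays were scanned by the authors, who quantified the spots in ImaGene and scaled each channel to its mean. What was deposited is a linear ratio for every spot, with the direction not stated, and channel intensities were not used here, so depth is given only as the number of arrays. Whether the pool held D0 is unclear, since the labels name EBs only and the methods all samples. Each slide of 17280 spots was read as printed blocks of 360 spots, with copies 160 spots apart, which gave 15360 clones. No copies differed in gene symbol. The other 3840 spots and 1 ratio of 0 were left out. There were 0 columns of other samples.

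Ratios were taken to log2, copies averaged, and each array centred on its median within each slide. Limma 3.58.1 (R 4.3.3) was fitted to all arrays with 9 condition means and a dye term, with Benjamini-Hochberg adjustment over 15360 clones, or over 7142 genes after averaging the clones of a gene. Clones lacking some arrays were fitted on the rest, and none was imputed; 40 of the 127 member clones lacked a value on at least 1 array. The fit was tested on simulated data. Elongation minus initiation is the difference of class medians per array, with no test.

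Named genes were every elongation and release gene, Eif4a1 and Eif3l, and the 8 initiation genes with the smallest F test p at gene level. Of the 6 genes with the smallest p, Eef1a1 and Eef2 were given by array. Eif3k, Eef1b2, Eef1g and Etf1 were given as the lowest, median and highest EB value with D0 on each dye. Other genes were named after their values were seen. Members and lists were chosen with earlier results of these data known. The alternatives were other centring and scaling, stricter filters, turning the sign of the Cy3 arrays, no dye term, quality weights, gene level and leaving out each array. Slide 2 alone, leaving out 3 slides that stood apart and leaving out Eef1a1 were added after seeing the data. Sequences are from RefSeq (GRCm38.p6).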

Additional observations from a re-analysis of the deposited data

How the results depend on the processing

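Of 127 member clones, limma called 3 for all EBs against D0, with the share of all clones in the same fit in brackets (0.189%). The count was 16 with both slides centred together (1.43%), 32 with no centring (29%, where the median of all clones shifted by 0.49), 15 of 87 with only clones present on all 18 arrays (3.28%), 13 of 66 on slide 2 alone (2.79%), 5 without the 3 slides that stood apart (0.293%) and 1 of 53 at gene level (0.308%). It was 0 at equal spread, after quantile normalisation, with the Cy3 sign turned, without a dye term and with quality weights. Leaving out each array gave 0 to 67, with 0 without D0 in Cy3, 67 without D0 in Cy5 (36.3%), 19 without D4+LIF in Cy3 (2.40%) and 11 of 110 without D1+LIF in Cy3 (1.65%). The trend with LIF had 8 (0.703%), 8 (1.57%), 19 (8.58%) and 8 (0.905%) calls with both slides centred together, clones on all 18 arrays, slide 2 alone and the 3 slides left out, against 0, and 0 to 71 (35.6%) leaving out each array. The trend without LIF had 0 to 46 (25.5%), the F test 0 to 28 (15.1%) and the LIF difference 0 to 3 (5.11%). The highest counts came without D0 in Cy5, apart from the 3, which came without D1+LIF in Cy3.

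Elongation minus initiation in Cy5 was negative on 9 of 9 arrays under each alternative run. Its median was -0.88 after quantile normalisation and -1.15 at gene level, and -1.99 to -1.96 leaving out each array. Of 560 values of the 20 named genes under alternatives, the only called one that changed sign was Eef1a1, at 0.19 with the Cy3 sign turned, where some uncalled genes changed sign as well. The cause was not tested. No paired analysis was possible because the labels carry no replicate numbers and only the dye, already a term of the fit, links arrays. With 1 array per condition and dye, the number of arrays limits the precision.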
